A study of Mus musculus with 3 samples.

Results

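The genes described here encode the constant regions of the antibody light chains and the surrogate light chain. The 7 named genes were Igkc, Iglc1, Iglc2, Iglc3, Igll1, Vpreb1 and Vpreb2, found by symbol among the 37646 genes of each count table. Of these 6 were measured, and Vpreb2 was not analysed here. The lambda constant genes were set against the rows whose symbols start with Iglv (3 genes) and Iglj (4 genes), and Igkc against those that start with Igkv (141 genes) and Igkj (5 genes).

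Messenger RNA was counted in B220+GFP+ cells sorted from the spleens of 3 moribund pBIC mice, with 1 library from each tumour and 15022902 to 15141009 counts per library. All mice were C57BL/6 and carried p53F/F and Blimp1F/F (conditional alleles of Trp53 and Prdm1), IKK2castopF/stopF (a constitutively active IKK2 behind a removable stop) and Cg1Cre/+. Cre is thus expressed from the C gamma 1 locus, which activated B cells transcribe. The labels call the model a lymphoma of the ABC type of diffuse large B cell lymphoma. The tumours form a single group, so each value is compared between genes within a tumour or between tumours, and no normal B cell was analysed here. Ages are not given in the labels.

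A B cell makes its light chain by joining a V segment to a J segment, at the kappa locus or at one of the lambda clusters, and the transcript is then spliced to the constant exon. In the mouse most B cells use kappa. Iglv1 is usually joined to the Iglj3-Iglc3 and Iglj1-Iglc1 clusters, and Iglv2 and Iglv3 to the Iglj2-Iglc2 cluster. Before any light chain exists, pro-B and early pre-B cells pair the heavy chain with the surrogate light chain, formed by VpreB (Vpreb1 and Vpreb2) and lambda 5 (Igll1), which is switched off as the cell matures. Unrearranged constant genes can also be transcribed, as germline transcripts that hold no V segment.

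The lambda genes are close relatives, and how far reads of 50 nt can tell them apart bears on each count. The coding sequences of Iglc2 and Iglc3 were 96.5% identical over 317 aligned positions in the GENCODE M21 transcripts (GRCm38, the assembly also called mm10). Iglc1 was 86.6% identical to Iglc4 but 74.7% to Iglc2 and 75.3% to Iglc3. The longest run that Iglc2 and Iglc3 share is 79 nt and is shown beside the matching stretch of Iglc1 and Iglc4, 5′ to 3′ on the reverse strand of chromosome 16, with capitals for bases that differ from Iglc2.
Iglc2: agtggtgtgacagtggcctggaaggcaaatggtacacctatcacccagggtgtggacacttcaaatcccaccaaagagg
Iglc3: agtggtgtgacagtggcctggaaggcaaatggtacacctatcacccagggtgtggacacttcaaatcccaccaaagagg
Iglc1: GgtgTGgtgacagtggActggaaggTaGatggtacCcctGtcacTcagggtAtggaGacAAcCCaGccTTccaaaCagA
Iglc4: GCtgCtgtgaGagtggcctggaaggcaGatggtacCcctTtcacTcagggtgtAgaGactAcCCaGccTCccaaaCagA
The stretches lie at chr16:19198670-19198748, chr16:19065499-19065577, chr16:19061889-19061967 and chr16:19195130-19195208 in that order. A 50 nt read from inside this run has the same letters for Iglc2 and Iglc3, and 20 of the 79 bases differ in Iglc1.

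Of all 50 nt words in the annotated transcripts of Igkc and of Iglc1, none occurred in the transcripts of another gene, on either strand. The share found elsewhere was 7.7% for Iglc2, all of it in Iglc3, and 22.3% for Iglc3, in Iglc2 and in 2010309G21Rik. That gene lies on the opposite strand over the Iglc1 and Iglc3 clusters and had only 20, 15 and 10 counts in tumours 1, 2 and 3. Among V genes the share was 22.2% for Iglv1, 21.1% for Iglv2 and 0% for Iglv3. The surrogate gene Vpreb1 shared 23.6% of its words, with Vpreb2 and with Top3b on the opposite strand, and Igll1 shared none. Other copies in the genome were not searched.

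**Figure D1:**
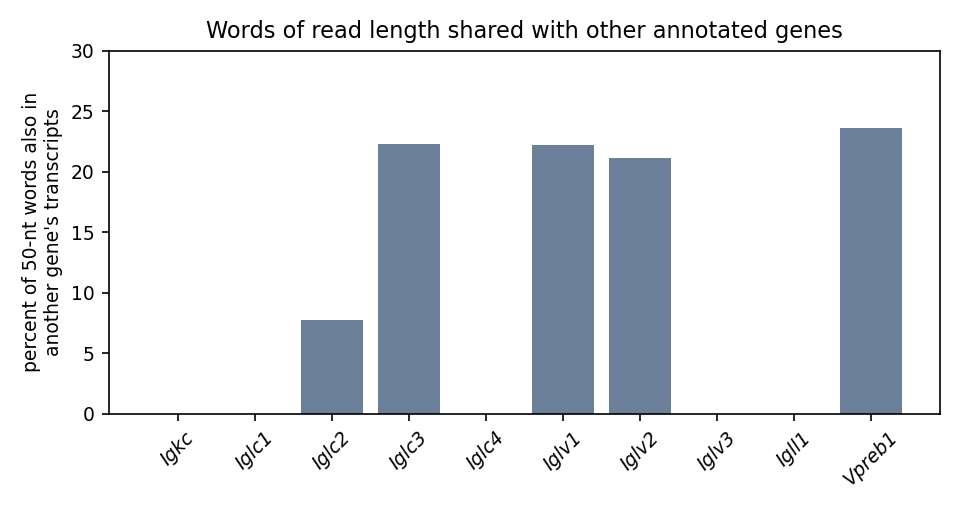
Percent of the 50 nt words in each gene's annotated transcripts that also occur in transcripts of another gene, by gene. Iglc3, Iglv1, Iglv2 and Vpreb1 share 21.1 to 23.6% of their words, Iglc2 shares 7.7%, and the bars of Igkc, Iglc1, Iglc4, Iglv3 and Igll1 are at 0.

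Igkc, the single constant gene of kappa chains (ENSMUSG00000076609.2, chromosome 6, 70726435 to 70726966, forward strand, 1 exon), was the most abundant of these genes. It had 60415, 82077 and 81974 counts in tumours 1, 2 and 3. Scaled to a common library size (CPM, with TMM factors), its level was 3900.7, 5690.2 and 5340.9 CPM, a mean of 4977 ± 949 CPM (SD, n = 3). Tumour 1 was lowest and tumours 2 and 3 lay close together. Of the 6 measured genes 4 reached 1 CPM in every tumour, where 28.7% of all listed genes did. Among all listed genes Igkc ranked 9 by mean CPM and 3 by mean TPM, which divides each count by the exon length of the gene.

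The summed level of 6 plasma cell genes was 184.9, 684.2 and 335.5 CPM, with 4 of 6 at 1 CPM in every tumour. Most of that order came from Jchain, the gene of the J chain in IgM and IgA polymers, with 35.5, 412.6 and 232.3 CPM. Without Jchain the list summed to 149.4, 271.6 and 103.2 CPM and was lowest in tumour 3, as Xbp1, Mzb1 and Sdc1 were. The rest of the list went otherwise. Prdm1, whose alleles are conditional in this model, was lowest in tumour 1, at 6.39, 20.0 and 9.32 CPM. Tnfrsf17 was highest in tumour 3, at 0.129, 0.139 and 0.912 CPM. Sdc1, which marks plasma cells, stayed between 0.326 and 0.485 CPM. The 6 pan-B genes summed to 3469, 2023 and 1943 CPM, and all 6 lay above 1 CPM in every tumour, in cells sorted on the B cell antigen B220. Of these 6, Cd22 had 644.6, 320.2 and 658.9 CPM and so peaked in tumour 3, while the other 5 peaked in tumour 1. The part of these lists in the level of Igkc was not tested. In such bulk samples fewer cells of a type and less RNA per cell cannot be told apart.

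The 3 lambda constant genes lie on the reverse strand of chromosome 16. Iglc1 (ENSMUSG00000105906.1, 19061618 to 19062071) had 5053, 4998 and 8727 counts, or 326.2, 346.5 and 568.6 CPM, with tumour 3 above the others. Iglc2 (ENSMUSG00000076937.3, 19198396 to 19200351) had 4852, 4646 and 5980 counts, or 313.3, 322.1 and 389.6 CPM, and was the steadiest of them. Iglc3 (ENSMUSG00000105547.1, 19065230 to 19065681) had 2282, 3408 and 2283 counts, or 147.3, 236.3 and 148.7 CPM, with tumour 2 above the others. Thus Iglc1 was highest in tumour 3 and Iglc3 in tumour 2. The summed lambda constant level was 933 ± 162 CPM (SD, n = 3), from 786.9 CPM in tumour 1 to 1107 CPM in tumour 3.

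**Figure D2:**
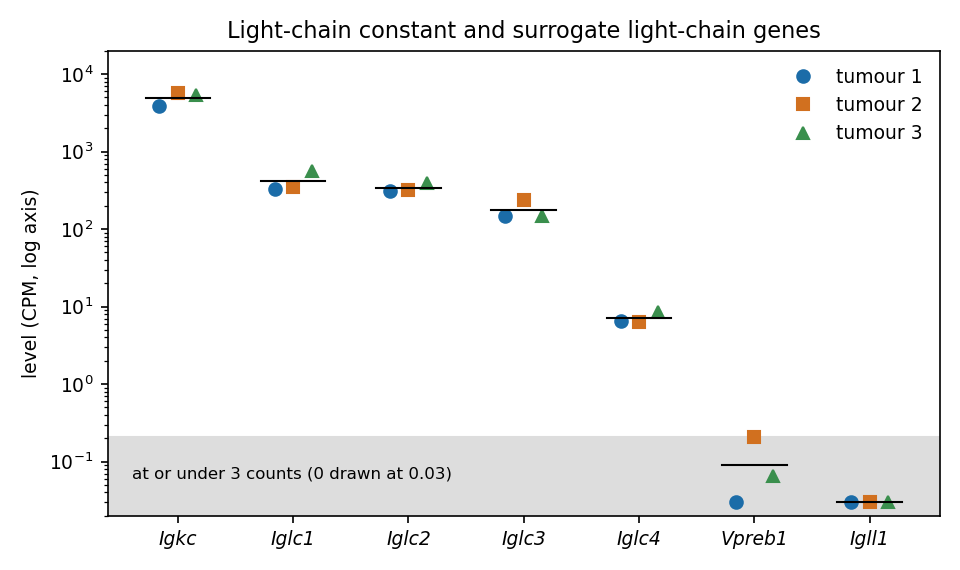
Level in CPM on a log axis of each gene, with 1 point per tumour and a line at the mean of 3 tumours. Igkc and the 3 lambda constant genes lie between 147.3 and 5690.2 CPM, Iglc4 between 6.31 and 8.6 CPM, and Vpreb1 and Igll1 in the grey band of at most 3 counts.

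The spread of each gene over the tumours was set against that of genes of like abundance with an edgeR variability test of 11478 genes, of which 16 (0.139%) had an adjusted p under 0.05. The 4 constant genes Igkc, Iglc1, Iglc2 and Iglc3 passed the filter for this test, and 0 of 4 were called. The unadjusted p was 0.425, 0.217, 0.785 and 0.312 in that order, and the edgeR adjusted p was 0.997 for each. The ratio of the highest to the lowest tumour was 1.46 for Igkc, 1.74 for Iglc1, 1.24 for Iglc2 and 1.6 for Iglc3. DESeq2, used to mark genes of outlying dispersion, marked none of these 4 genes. A p that misses the threshold does not show equal levels.

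Per length, the order of the constant genes was Igkc, Iglc1, Iglc2 and Iglc3 by mean TPM. Igkc had 23999, 29331 and 30400 TPM in tumours 1, 2 and 3, and Iglc1 had 2352, 2093 and 3793 TPM. Iglc2 had 1675, 1443 and 1928 TPM against 1067, 1433 and 996.5 TPM for Iglc3, so that the pair had nearly the same level in tumour 2. The difference Igkc minus the summed lambda genes was 2.24, 2.56 and 2.18 in log2(TPM + 1), with a mean of 2.32 ± 0.21 (SD, n = 3), or 5.01-fold. Iglc1 minus Iglc2 was 0.67 ± 0.27, higher in 3 of 3 tumours, and Iglc2 minus Iglc3 was 0.54 ± 0.48, with 0.01 in tumour 2 and a mean of 0.33 without tumour 3. Without division by length, Iglc1 minus Iglc2 averaged 0.24 and Iglc2 minus Iglc3 averaged 0.97. The annotated length of Iglc2, 612 nt, includes an upstream exon that holds the Iglj2 segment, and is larger than the 454 and 452 nt of Iglc1 and Iglc3.

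As a share of all light-chain constant counts, the lambda genes held 16.8%, 13.7% and 17.2% in tumours 1, 2 and 3. The 95% Clopper-Pearson intervals were 16.5 to 17.1%, 13.5 to 13.9% and 16.9 to 17.4%. Tumour 2 thus lay below the other tumours by more than counting error. Within the lambda counts, Iglc1 held 41.5%, 38.3% and 51.4%, Iglc2 39.8%, 35.6% and 35.2%, and Iglc3 18.7%, 26.1% and 13.4% in tumours 1, 2 and 3. All 3 genes were therefore counted in every tumour, and none held nearly all of the lambda counts.

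The V segments gave another picture. Kappa V genes had 13389, 16753 and 18757 counts, which is 22.2, 20.4 and 22.9 per 100 Igkc counts. Lambda V genes had 55, 21 and 27 counts in all, which is 0.451, 0.161 and 0.159 per 100 lambda constant counts. Their mean ratio was 0.257 ± 0.168 (SD, n = 3), and 0.160 without tumour 1. The lambda genes thus held 13.7 to 17.2% of the constant counts but 0.409% (0.308 to 0.532%), 0.125% (0.0775 to 0.191%) and 0.144% (0.0947 to 0.209%) of the light-chain V counts. V counts per constant count were 49.1-fold, 127-fold and 144-fold higher for kappa than for lambda. The mean difference was 6.57 ± 0.84 on the log2 scale (SD, n = 3; pseudocount 0.5), higher in 3 of 3 tumours. An exact permutation test by sign-flips, two-sided, gave p = 0.25, and 3 tumours can give none smaller.

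Division by exon length gave a difference of 6.71, and division by the number of words found in no other gene gave 7.32. The gap was therefore no smaller when each gene was scaled to its unshared words. The value turns on 1 kappa gene. Igkv6-17, the leading kappa V gene, had 12481, 16539 and 18629 counts, and all other kappa V genes together had 908, 214 and 128. Without Igkv6-17, kappa V counts per 100 Igkc counts were 1.5, 0.261 and 0.156, and the difference from lambda was 1.72, 0.67 and -0.05 in tumours 1, 2 and 3, with a mean of 0.78 ± 0.89. In tumour 3 the ratios were thus nearly equal, 0.156 for kappa and 0.159 for lambda, on 128 and 27 V counts. Igkc counts that belong with Igkv6-17 stayed in that ratio, since counts per gene do not show which V segment a constant transcript carries.

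Both the lambda V counts and the kappa V counts outside Igkv6-17 were highest in tumour 1. So was Ighd, the constant gene of IgD on naive B cells, at 9.75, 0.416 and 0.326 CPM. The 4 naive B cell genes together had 512.9, 506.0 and 487.8 CPM, with 2 of 4 at 1 CPM in every tumour. The part of naive B cells in the V counts was not tested. Per gene, Iglv1 had 30, 13 and 9 counts, Iglv3 had 21, 7 and 18, and Iglv2 had 4, 1 and 0. Iglv2 thus lay at or near the floor of 3 counts, and at such counts no order between the V genes was read. The lambda V genes did not pass the filter of the variability test.

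The J segments went in the opposite direction to the V segments. Lambda J counts were 447, 488 and 565, or 3.67, 3.74 and 3.33 per 100 lambda constant counts. Kappa J counts were 1213, 1337 and 1683, or 2.01, 1.63 and 2.05 per 100 Igkc counts. The lambda ratio was 1.83-fold, 2.30-fold and 1.62-fold higher, and no kappa value reached a lambda value. The lambda J sum leaves out Iglj2, which lies in the upstream exon of Iglc2, while Iglc2 is in the constant sum. The lambda and kappa J ratios thus cover unlike sets of segments. Kappa minus lambda was -0.92 ± 0.26 on the log2 scale (SD, n = 3), lower in 3 of 3 tumours, with an exact sign-flip p of 0.25. For each 100 J counts there were 12.3, 4.30 and 4.78 V counts at lambda, against 1104, 1253 and 1114 at kappa.

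**Figure D3:**
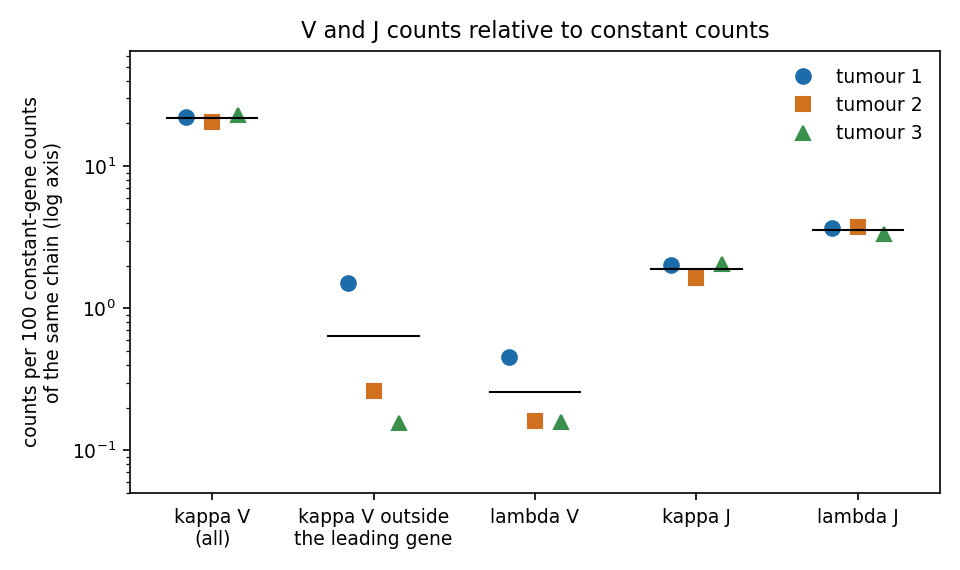
Counts on V or J segments per 100 counts on the constant genes of the same chain, on a log axis, with 1 point per tumour and a line at the mean. Kappa V lies at 20.4 to 22.9 and lambda V at 0.159 to 0.451, while lambda J at 3.33 to 3.74 lies above kappa J at 1.63 to 2.05. Lambda J leaves out Iglj2, while the lambda constant genes include Iglc2.

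The lambda J segments are shown 5′ to 3′ on the reverse strand of chromosome 16, because each is shorter than a read. Whether 50 nt reads tell them apart was not tested, since none holds a whole word of that length. Iglj2 and Iglj3 have the same letters over their 3′ part. Capitals mark bases that differ from Iglj1 at the same place from the 5′ end.
Iglj1: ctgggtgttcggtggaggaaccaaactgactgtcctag
Iglj2: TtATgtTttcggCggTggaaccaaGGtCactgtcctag
Iglj3: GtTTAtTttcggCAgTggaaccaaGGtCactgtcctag
Iglj3p: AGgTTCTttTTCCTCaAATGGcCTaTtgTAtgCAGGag
Iglj4: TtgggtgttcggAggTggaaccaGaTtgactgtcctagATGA
They lie at chr16:19063225-19063262, chr16:19200198-19200235, chr16:19067041-19067078, chr16:19066371-19066408 and chr16:19196495-19196536 in that order. Iglj1, Iglj2, Iglj3 and Iglj3p are 38 nt and Iglj4 is 42 nt, so every 50 nt read counted on one of them also held sequence from beside the segment. Whether that was unrearranged flank, a V segment or a spliced constant exon is not shown by counts per gene. The annotation places Iglj2 inside the upstream exon of Iglc2, and Iglj2 was not analysed on its own here.

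Iglj1 and Iglj3 were each highest in the tumour where the constant gene of their own cluster was. Iglj1 had 266, 245 and 477 counts, highest in tumour 3 as Iglc1 was, which is 5.26, 4.90 and 5.47 per 100 Iglc1 counts. Iglj3 had 180, 240 and 74 counts, highest in tumour 2 as Iglc3 was, which is 7.89, 7.04 and 3.24 per 100 Iglc3 counts. In tumour 3 the Iglj3 ratio was thus lower than in the other tumours, while the Iglj1 ratio stayed within 4.90 to 5.47. Iglj1 held 84.4% of lambda J counts in tumour 3 (95% Clopper-Pearson interval 81.2 to 87.3%) against 59.5% (54.8 to 64.1%) and 50.2% (45.7 to 54.7%) in tumours 1 and 2. The edgeR variability test called neither, with adjusted p = 0.997 for Iglj1 and 0.971 for Iglj3.

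The remaining lambda segments were scarce. Iglj3p, a J segment whose sequence is the least like Iglj1 of those shown, had 1, 3 and 14 counts, and Iglj4 had 0. Iglc4, held to be non-functional in the mouse, had 101, 91 and 132 counts, or 7.14 ± 1.27 CPM (SD, n = 3). That is 0.829, 0.697 and 0.777 per 100 counts of the other lambda constant genes. No word of its transcript occurs in another gene, so reads that match it without a mismatch have no second annotated origin.

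**Figure D4:**
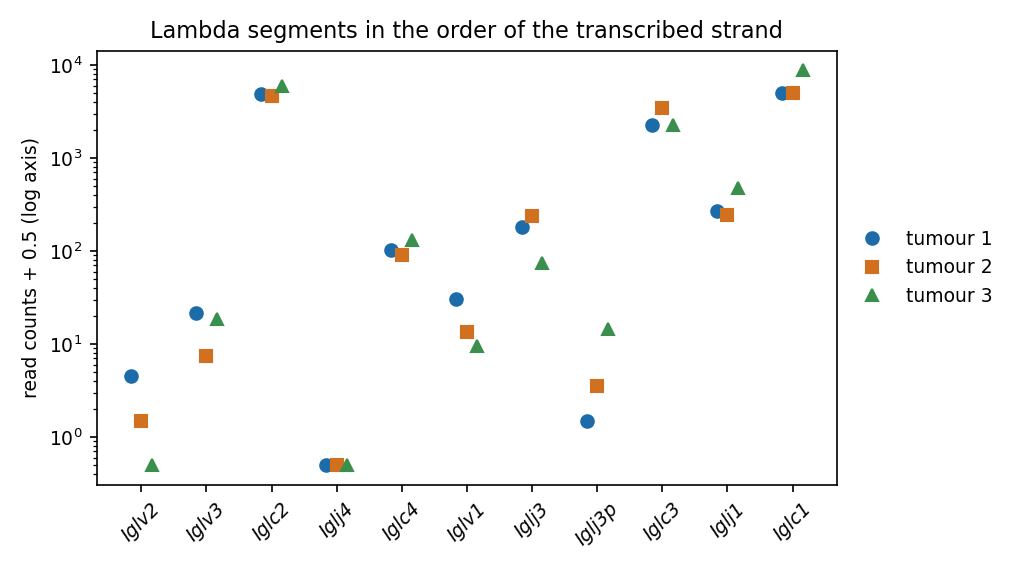
Read counts plus 0.5 on a log axis for each lambda segment, in the order in which the reverse strand is read, with 1 point per tumour. Iglc1, Iglc2 and Iglc3 have 2282 to 8727 counts, Iglj1 and Iglj3 have 74 to 477, and the 3 V genes have at most 30.

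The surrogate light chain was at or under the count floor. Igll1, which encodes lambda 5 (ENSMUSG00000075370.12, chromosome 16, 16860671 to 16863985), had 0 counts in each tumour, which allows up to 3 counts, or 0.194, 0.208 and 0.195 CPM. Vpreb1 (ENSMUSG00000059305.12, chromosome 16, 16868403 to 16870843) had 0, 3 and 1 counts. Of all listed genes 53.4% had at most 3 counts in every tumour and 32.3% had no count in any, so this level is common in these libraries. Top3b, which overlaps 108 nt of the Vpreb1 exons on the opposite strand, had 1120, 1007 and 1210 counts, and the use of strand is not given in the sources used here. The Vpreb1 minus Igll1 difference is given no fold, since both genes lay at or under the floor, and its exact sign-flip p was 0.5. Over the 6 differences computed, the Benjamini-Hochberg adjusted p was 0.3 for the other 5 and 0.5 for this one.

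Other genes of the pro-B and pre-B stages were given for comparison. Of 13 in the list, 3 (23.1%) reached 1 CPM in every tumour, near the 28.7% of all listed genes. The median level was 0.307 CPM, against 0.0879 CPM over all listed genes and 33.3 CPM over the genes of the variability test. Rag1 and Rag2, which encode the recombinase that joins V and J segments, had no count, nor had Arpp21. Dntt, which adds bases at heavy-chain joints, had 0, 0 and 1 counts. Vpreb3, a relative of Vpreb1 found in later B cells too, had 34, 30 and 10 counts, or 1.64 ± 0.86 CPM. The 3 that reached 1 CPM were the cytokine receptor genes Il7r at 2.58, 1.11 and 1.76 CPM and Flt3 at 2.58, 11 and 9.51 CPM, and the transcription factor gene Myb at 46.7 ± 8.48 CPM. Cd93, Kit, Sox4, Lef1 and Erg had mean levels of 0.109 to 0.669 CPM. Of the 4 that passed the filter 0 were called by the edgeR variability test.

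Factors known to act on light-chain or surrogate light-chain genes reached 1 CPM in every tumour in 13 of 13 cases, beside the same 28.7% of all listed genes. Their median level was 348 CPM, to be set against the same medians of 0.0879 and 33.3 CPM. Pax5, which keeps B cell identity, had 626, 261 and 334 CPM, and Tcf3, which encodes the E proteins E12 and E47, had 348 ± 78.2 CPM. Ebf1, an activator of Igll1 and Vpreb1 in early B cells, was the lowest of the list at 13.9, 4.85 and 2.28 CPM. Irf4 and Irf8, which act with PU.1 and SPIB on light-chain enhancers, had 191 ± 85.2 and 854 ± 391 CPM. Spi1, the gene of PU.1, had 60.0 ± 8.69 CPM and Spib had 398 ± 131 CPM. Ikzf1 and Ikzf3, which silence surrogate light-chain genes in maturing pre-B cells, had 587 ± 231 and 317 ± 126 CPM. The octamer factor genes Pou2f1 and Pou2f2 had 49.0 ± 21.7 and 352 ± 95.2 CPM, their coactivator gene Pou2af1 392 ± 25.3 CPM, and Foxo1, an activator of the Rag genes, 38.4 ± 6.68 CPM. None of the 13 was called by the edgeR variability test, where the smallest unadjusted p was 0.0292, that of Irf8 (adjusted p = 0.691).

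**Figure D5:**
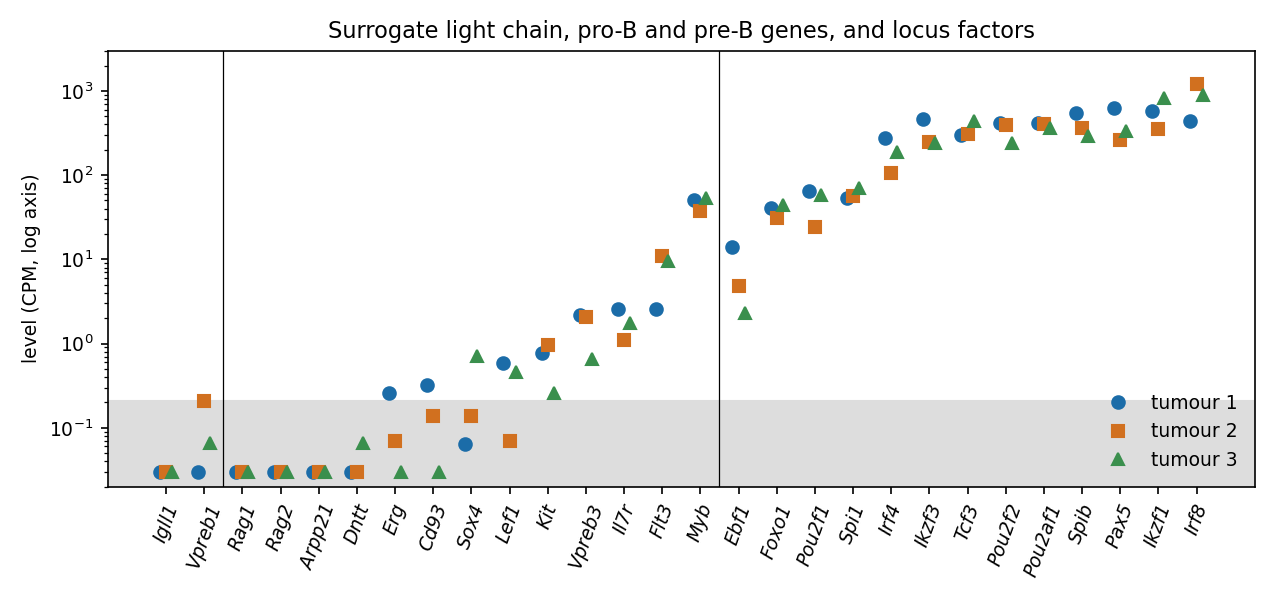
Level in CPM on a log axis, with 1 point per tumour, of the surrogate genes (left), 13 pro-B and pre-B genes (middle) and 13 factors (right), with the band of at most 3 counts in grey and counts of 0 drawn at 0.03. Most early-stage genes lie below 1 CPM, and the factors lie above 1 CPM.

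Among 10094 other genes of mean count 50 or more, the 3 whose profile over the 3 tumours was nearest to that of Igkc were Ddrgk1 (56.6, 82.2 and 77.4 CPM), Aspscr1 (30.8, 44.9 and 41.8 CPM) and Ppp2r1a (246.0, 355.7 and 336.8 CPM). Likeness was the Euclidean distance between centred log2 CPM values, here 0.00474, 0.00951 and 0.0102. For the summed lambda constant genes they were Stard7, Keap1 and Zfp598, at 0.00789, 0.0105 and 0.0162. Over only 3 tumours such a distance is a description, and nothing is read from it.

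Markers of other cells that the gate could hold differed in level. The summed level of 6 T cell genes was 37.9 to 88.7 CPM and that of 3 neutrophil genes 2.22 to 44.4 CPM. That of 5 macrophage genes was 148.6 to 183.6 CPM and that of 5 plasmacytoid dendritic cell genes 165.4 to 216.2 CPM. Among them Cd68 had 123 to 142 CPM, Pacsin1 85.2 to 141 CPM, Bst2 42.6 to 72.8 CPM and Ccr9 6.93 to 32 CPM, while Fcgr1 and Siglech stayed below 1 CPM. Of the T cell genes Cd8b1 was highest, at 24.7, 18.7 and 55.1 CPM. Cd3e had 1.61 to 2.22 CPM and Cd3d 0.968 to 1.94 CPM, and Cd3g, Cd4 and Cd8a had 1.73 to 12.1 CPM. The macrophage genes did not share an order. Adgre1 (3.23, 0.624 and 0.847 CPM) and Fcgr1 (0.517, 0.208 and 0.13 CPM) were highest in tumour 1, and Cd68 was highest in tumour 3. Csf1r (2.58, 3.54 and 1.95 CPM) and Lyz2 were highest in tumour 2. Lyz2, which encodes the lysozyme of macrophages, had 7.55, 56 and 4.04 CPM and was called by the edgeR variability test (adjusted p = 0.0372). So was the globin gene Hbb-bs, at 2.58, 8.67 and 61.5 CPM (adjusted p = 0.0234), and so was Jchain (adjusted p = 0.0363). The same edgeR test called 0 genes of the whole table without tumour 1 (654 at an unadjusted p under 0.05) and 0 without tumour 2 (606). The 3 erythroid genes together had 4.78, 17.5 and 107.8 CPM, highest in tumour 3 as Iglc1 and the summed lambda constant genes were, and their part in those levels was not tested.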

How the data were processed

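The authors deposited raw read counts per gene for each of the 3 libraries, not normalized. Per the submitters' processing notes, the tools were FastQC, STAR 2.5.2b and featureCounts 1.6.0, with build mm10. Not stated there or elsewhere in the sources used here are settings, the use of strand, the handling of reads that map to several places and the annotation release. If such reads were left out, Iglc2, Iglc3, Iglv1, Iglv2 and Vpreb1 are undercounted. Reads across a V to J joint, or changed by somatic mutation, can be lost, and reads over 2 genes may go uncounted.

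Of 37646 genes 37536 had a union exon length in GENCODE M21 (GRCm38), and coordinates come from that release. In edgeR 4.0.16 (R 4.3.3) the TMM scaling factors were 1.023, 0.9601 and 1.018. An intercept-only edgeR quasi-likelihood fit gave, for each gene that passed filterByExpr, the residual deviance over the prior variance, tested one-sided against F on 2 and 15.8 degrees of freedom, and adjusted by Benjamini-Hochberg. Differences within a tumour were tested by exact two-sided sign-flips. DESeq2 1.42.0 gave alternative size factors and dispersion outliers. Transcript words and alignments were computed with Python 3.11.15 and Biopython 1.88.

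Tumours are numbered in accession order. The labels do not say that the animals were unrelated, so p-values refer to these samples only. The spread between the samples may be technical in part. The exact sign-flip p was 0.25 for each difference with the same sign in 3 of 3 tumours, whatever its SD. Intervals and floors cover counting error only, and treat each counted read as a separate molecule. Members, lists and tests were chosen with earlier results of these data known. The text names every member, all lambda V and J genes, the kappa sums and J genes, the fixed lists, and the 3 nearest genes in profile.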

Additional observations from a re-analysis of the deposited data

How the results depend on the processing

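The means of the 6 differences between genes kept their sign under every alternative run. Without Igkv6-17, left out after seeing the data, the V difference fell to 0.78 ± 0.89 (SD, n = 3), with -0.0462 in tumour 3. The 4 constant genes were not called under any (edgeR adjusted p 0.886 to 1). The Igkc share of light-chain constant counts, 84.1%, was 82.0% after division by the words found in no other gene, chosen after seeing the data. Lambda V counts per 100 lambda constant counts, 0.257, became 3.83 with J segments added, which are more numerous. Left out one at a time, the tumours gave 0.160 to 0.306 for the former ratio and 6.28 to 7.05 for the V difference. The 16 genes called over the whole table became 0 with library size alone (709 at an unadjusted p under 0.05) and 0 with a mean count of at least 10 (781 at an unadjusted p under 0.05), the latter added after seeing the data. With no filter edgeR called 164 genes, and DESeq2 marked 61 as dispersion outliers. Without 1 tumour edgeR called 0 to 11: 0 without tumour 1 (654 at an unadjusted p under 0.05), 0 without tumour 2 (606) and 11 without tumour 3. The cause of these shifts was not tested. No paired analysis was possible because there is 1 group and so no replicate numbers shared across groups; differences between genes were taken within each tumour. Depth limits the lambda V genes, with at most 30 counts each, and the surrogate genes, with at most 3.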

Other observations

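At the kappa locus, Igkj1 led the joining segments with 863, 1204 and 1330 counts in tumours 1, 2 and 3. Igkj2, Igkj3, Igkj4 and Igkj5 had 25 to 126 counts each, and all 4 were lowest in tumour 2. None of the 5 was called by the edgeR variability test (smallest unadjusted p 0.297, adjusted p 0.997). Each is 38 to 43 nt long, so a 50 nt read counted on one also held neighbouring sequence. Gm30211 spans the same region on the same strand, shares no exon base with them or with Igkc, and had 7, 3 and 9 counts.

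The partners of the light chain in the B cell receptor were measured as well. Ighm, the constant gene of the IgM heavy chain, had 496 ± 57.6 CPM (SD, n = 3). Cd79a and Cd79b, whose products signal for the receptor, had 369, 174 and 162 CPM and 395, 343 and 212 CPM. Both were highest in tumour 1, where Igkc was lowest, and neither was called by the edgeR variability test (adjusted p 0.789 and 0.997).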
